A study of Mus musculus with 18 samples.

Results

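Heterozygous Nkx2-5 embryos were compared with wild-type embryos to describe how far 1 functional allele kept expression at the wild-type level. The comparison used every array whose label named a heterozygous or a wild-type embryo, 12 of the 18 arrays in the series. Total RNA came from mouse embryos at embryonic day 9.5, from the middle of 3 parts of the body, and was read on 2 array types that carry different probe sets, called type a and type b. Wild type was replicates 1, 5 and 7 and heterozygous was replicates 3, 4 and 8 on each type. The other 6 arrays, of homozygous mutants, entered through the shared estimate of spread and are given beside the heterozygous values where a gene depended on the loss of both alleles. The labels name no strain, allele design, litter or somite stage, and do not say whether an array held 1 embryo or a pool. The p-values therefore measure the spread between the RNA samples used, and that spread may be technical.

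Nkx2-5, also called Csx, is a homeobox transcription factor of heart progenitors and heart muscle. It binds DNA next to Gata and T-box factors at genes of the contractile apparatus, natriuretic peptides and conduction. Embryos without it stop at heart looping and die with a failing circulation, while carriers of 1 functional allele survive, and in people such loss is known for septal and conduction defects. Nkx2-5 itself had no named probe set among those annotated, so its level and the genotype of each array were not checked.

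The middle part held several tissues, and markers of each were measured. All 12 sarcomere genes on the arrays were bright enough to be tested, as were 18 of 22 genes of the red cell lineage, 20 of 32 neural genes and 11 of 17 endothelial genes. In RNA from whole tissue, fewer cells of a type and less RNA per cell cannot be told apart. Between 54.8% and 57.8% of probe sets on the wild-type and heterozygous arrays of type a exceeded the floor of intensity set for the noise. On type b the share was 39.8%, 42.1% and 39.9% in wild type 1, 5 and 7, below each heterozygous array. Heterozygous 3, 4 and 8 had 42.7%, 42.6% and 44.0% there. The ratio of the 3′ to the 5′ actin control, a sign of RNA quality, ran from 0.967 to 1.41 over the 12 arrays. On type b heterozygous 8 lacked 499 values, and 83 tested probe sets therefore rested on 2 heterozygous arrays. Afp, a liver and yolk sac endoderm gene, stood at 3515 in wild type 1 and 3309 in heterozygous 4 on type b, and between 336.7 and 473.6 on the other 4 arrays, all of them under the floor of 523.1.

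No probe set passed the test for a difference between heterozygotes and wild type. Of 6935 probe sets tested with limma, 0 (0%) reached an adjusted p under 0.05, and the smallest adjusted p was 1. At an unadjusted p under 0.05, limma counted 88 probe sets higher (1.27%) and 30 lower (0.433%) in heterozygotes, 118 in all or 1.7% of those tested. With no true differences 346.8 would be expected at that threshold, and why fewer were found was not tested. Of the 118, type b held 65 higher and 16 lower among 2966 tested, and type a 23 higher and 14 lower among 3969. The split between higher and lower turned with the scaling. After quantile normalization 45 were higher and 74 lower, and the median of all probe sets moved from 0.03 to -0.02 on the log2 scale. Every wild-type value lay below every heterozygous value in 259 probe sets (3.73%), and above in 183 (2.64%). Leaving out wild type 7 brought 1 unnamed probe set, Msa.17018.0_i_at, past the threshold, with a log2 difference of 2.19 and an adjusted p of 0.0135 in limma. Leaving out heterozygous 8 brought 1 other, of Kmt5c, a histone H4 lysine methyltransferase, at -3.30 with an adjusted p of 0.0181 in limma.

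The measured differences were small. The median size of the log2 difference between heterozygotes and wild type was 0.136 over all tested probe sets, and 75.8% of probe sets lay within 0.25 of wild type. The same median was 0.216 for homozygous mutants, which share the wild-type arrays. Of the 6935 probe sets, 5247 stood above the floor on all 6 wild-type and heterozygous arrays of their type. The others had a reading under the floor, or lacked one. Raising such readings to the floor can shrink a difference, and how much of the smallness it made was not tested. Probe sets at the floor on all 6 arrays, such as that of Ier3, entered as 0.0. A log2 difference beyond 1, that is over 2-fold, was measured for 20 probe sets (0.288%) in heterozygotes and for 166 (2.39%) in homozygous mutants. The histogram of log2 differences shows both distributions centred near 0 and the heterozygous one narrower on each side.

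**Figure D1:**
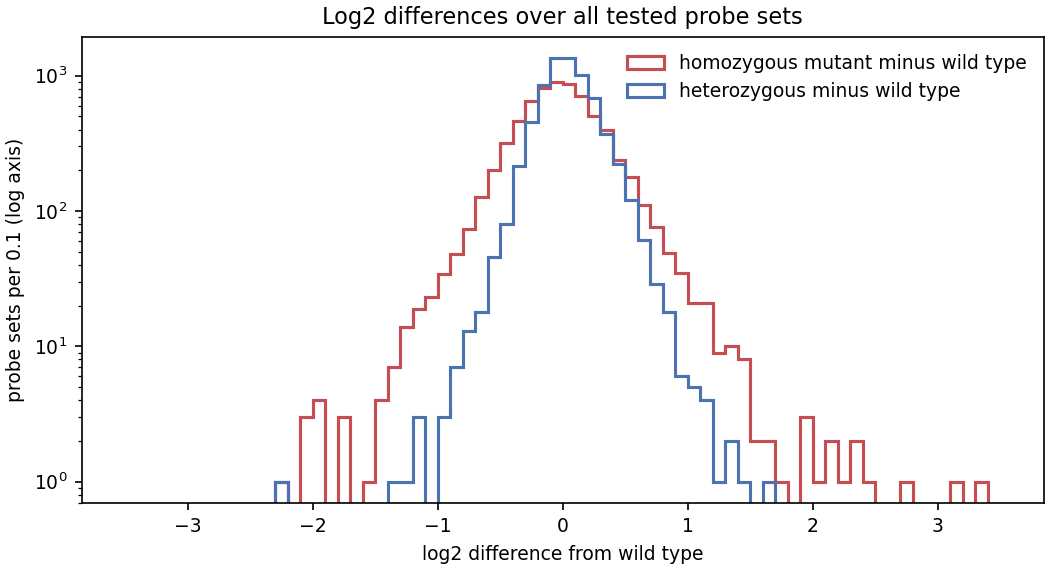
Histogram of log2 differences from wild type over 6935 tested probe sets (x axis, bins of 0.1; y axis, number of probe sets on a log axis), with 1 line for heterozygotes and 1 for homozygous mutants. Only 20 probe sets lie beyond 1 in size in heterozygotes, against 166 in homozygous mutants. The homozygous mutants include arrays 8 of type a and 9 of type b, whose 3′ to 5′ actin ratios were high.

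A difference near 0 bounds the effect only as far as its interval does. Among the 5247 probe sets above the floor on all 6 wild-type and heterozygous arrays of their type, the unadjusted 95% confidence interval lay within 2-fold of wild type for 4365 (83.2%). It lay within 0.5 on the log2 scale for 866 (16.5%), and the median distance from the estimate to its bound was 0.561. A change of 2-fold in either direction was therefore outside the interval for most of these probe sets, and a change of 0.5 on the log2 scale was inside it for most. For 882 probe sets the interval reached beyond 2-fold, and for 0 it lay wholly beyond.

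The intervals with the smallest outer bound belonged to bright genes. This rule picks genes whose estimate is near 0, so their closeness to wild type is no separate result. Immt, a structural protein of mitochondrial cristae, read 13837, 13810 and 12926 in wild type 1, 5 and 7, and 13745, 13570 and 13452 in heterozygous 3, 4 and 8. Its log2 difference was 0.01 with a 95% interval from -0.26 to 0.27. The groups overlapped throughout. Copz1, a vesicle coat subunit, differed by 0.01 (-0.27 to 0.29) and Snw1, a splicing factor, by -0.02 (-0.30 to 0.26). Ranbp3, a nuclear export cofactor, differed by -0.01 (-0.29 to 0.28), and Llgl1, a cell polarity gene, by 0.02 (-0.27 to 0.30).

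The arrays did not sort by genotype. Wild type 5 lay close to heterozygous 3 and 4, and wild type 7 lay close to heterozygous 8, on both array types. Within these sets of like arrays the median size of the log2 difference between 2 arrays lay between 0.13 and 0.191 for type a and between 0.166 and 0.207 for type b. Between arrays of different sets it lay between 0.284 and 0.333, and between 0.29 and 0.329. The 3 wild-type arrays of type a differed from each other by 0.297 to 0.333, and wild-type from heterozygous arrays by 0.139 to 0.328. The labels name no batch, the sets were read from the values, and what the arrays of a set share was not tested. Differences within the first set (heterozygous 3 and 4 minus wild type 5) and within the second (heterozygous 8 minus wild type 7) are therefore given beside the main results.

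**Figure D2:**
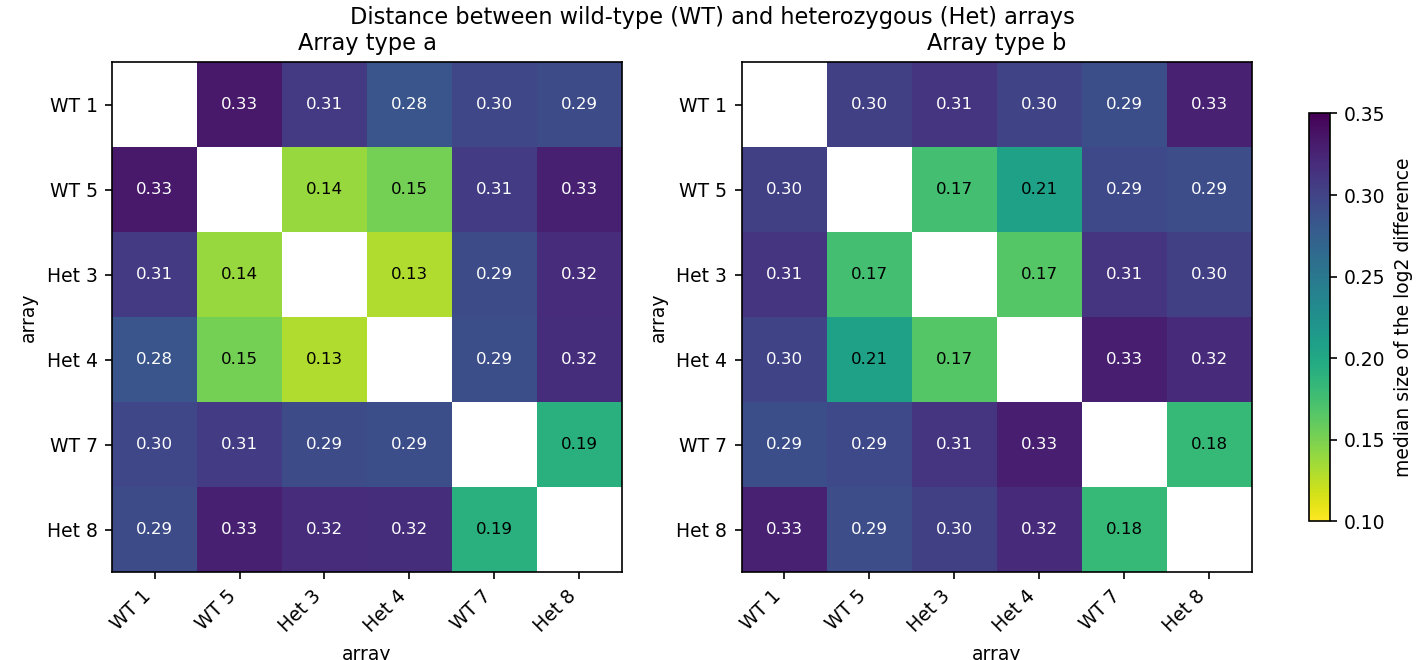
Median size of the log2 difference over tested probe sets for each pair of wild-type (WT) and heterozygous (Het) arrays, for type a (left) and type b (right); colour and printed number give the same value. Pairs of WT 5, Het 3 and Het 4, and the pair of WT 7 and Het 8, are between 0.13 and 0.207, and every other pair is at 0.284 or more.

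The genes that responded to the loss of both alleles differed little from wild type with 1 allele in most cases. Homozygous mutants differed from wild type in 48 probe sets (0.692% of those tested with limma), 35 higher and 13 lower, with a median size of 1.34 on the log2 scale. At 7 of the 48 every wild-type and heterozygous array was at the floor, so no heterozygous difference could be read there. Over the other 41 the median size was 0.126 in heterozygotes and 1.32 in homozygous mutants, and the largest heterozygous size was 0.725. The heterozygous difference was under 25% of the homozygous one in 36 of the 41. The homozygous difference chose these probe sets, which by itself favours such a share. The heterozygous 95% interval lay within 2-fold of wild type in 36, and in 83.2% of all probe sets above the floor on all 6 arrays. Over all tested probe sets, those at the floor included, the median heterozygous size was 0.136, close to the 0.126 of the 41. Wild type and heterozygotes did not overlap in 5 of the 48 (10.4%), against 6.37% of all tested probe sets. An unadjusted p under 0.05 in limma was reached by 2 of the 48 (4.17%), against 1.7% of all. Both comparisons share the wild-type arrays.

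The named genes are the 10 with the smallest adjusted p in homozygous mutants, which chose them. Ddit4, an inhibitor of mTOR signalling that is induced by low oxygen, read 2618, 2208 and 2219 in wild type 1, 5 and 7. In heterozygous 3, 4 and 8 it read 1937, 3020 and 3090, and in homozygous mutants 2, 6 and 9b it read 25899, 20958 and 24797. Heterozygotes overlapped wild type, and all homozygous mutants stood far above both. The log2 difference was 0.16 (SE 0.209) in heterozygotes and 3.35 in homozygous mutants, the latter with an adjusted p of 3.67e-05 in limma. Ddit4 was the 1 probe set (0.0144% of those tested) whose heterozygous level differed from the midpoint between the 2 other genotypes, by -1.51 with an adjusted p of 0.0296 in limma. This call was lost (0 probe sets) without wild type 1, wild type 5, heterozygous 3, heterozygous 4, homozygous mutant 2, or homozygous mutants 8a and 9b, and 141 probe sets were called when limma weighted the arrays.

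Slc2a3, a glucose transporter, read 2594, 2950 and 3570 in wild type, 2877, 3746 and 2981 in heterozygotes, and 13382, 11688 and 13281 in homozygous mutants 2, 6 and 8a. Its log2 difference was 0.08 (SE 0.165) in heterozygotes and 2.08 in homozygous mutants. A second, dimmer probe set of Slc2a3 differed by 0.64 in heterozygotes, at an unadjusted p of 0.137 in limma. Pgm1, a phosphoglucomutase that links glycogen to glycolysis, read 6141, 6371 and 6083 in wild type and 6412, 5262 and 5240 in heterozygotes. Its log2 difference was -0.14 (SE 0.131) in heterozygotes and 1.31 in homozygous mutants. Krt19, a keratin of simple epithelia, stood at 734 ± 170 (SD, n = 3) in wild type, 675.7 ± 137 in heterozygotes and 2.38 higher on the log2 scale in homozygous mutants. Vldlr, a lipoprotein receptor, Adm, a vasodilator peptide, and Ndrg1, a hypoxia-induced stress gene, were under the floor on all 6 wild-type and heterozygous arrays. Ier3, an early stress response gene, was likewise under it on each of them. No heterozygous level above noise was measured for these 4 genes, whose homozygous log2 differences, lower bounds since wild type was at the floor, were 1.19 to 2.75. Rnf19a, a ubiquitin ligase, was under the floor of type b on these arrays as well, but a probe set on type a read 642.9, 911.9 and 940.0 in wild type and 504.1, 949.3 and 687.6 in heterozygotes. There its log2 difference was -0.25 in heterozygotes and 1.11 in homozygous mutants (adjusted p 0.125 in limma).

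Srsf6, a splicing factor of the SR family that fell in homozygous mutants by 1.31 on the log2 scale, was the exception among the 10 most strongly supported genes. It read 6421, 5646 and 4874 in wild type 1, 5 and 7, then 4400, 4503 and 4734 in heterozygous 3, 4 and 8. All heterozygous values were below all wild-type values, with a log2 difference of -0.30 (SE 0.178, unadjusted p 0.115 in limma). A probe set for Srsf6 on type a differed by 0.02, with overlapping groups.

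**Figure D3:**
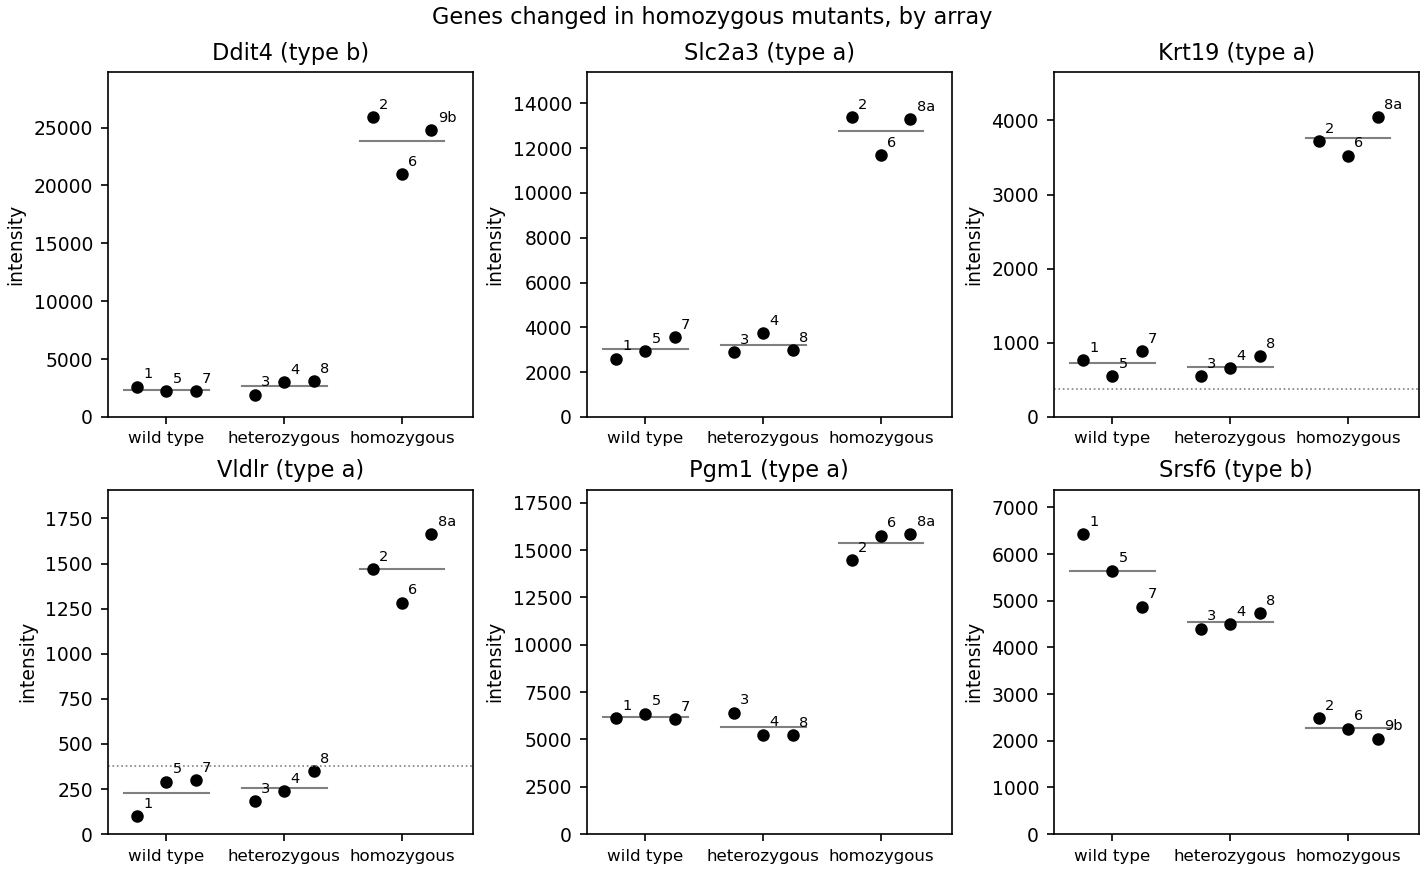
Intensity of 6 genes changed in homozygous mutants, 1 point per array labelled with its replicate number, by genotype; gray lines are group means of 3 arrays and dotted lines the floor. In 5 panels the homozygous mutants stand above all other arrays and heterozygous points overlap wild type, and in the Srsf6 panel heterozygous points lie between the other genotypes.

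Promoters are shown for heart genes because Nkx2-5 is a DNA-binding factor. The 250 bases before the start site are shown for 3 genes that were reported to be low in hearts without Nkx2-5, from RefSeq on build GRCm38.p6. Matches to AAGTG, the core bound by Nkx2-5, and to AGATAA, bound by Gata factors, are in capitals on either strand, so that CACTT is AAGTG on the reverse strand. Nppb is at chr4:147985650-147985899 (+), Myl2 at chr5:122092474-122092723 (+, the first of 2 entries) and Gja5 at chr3:97032152-97032401 (+).
Nppb: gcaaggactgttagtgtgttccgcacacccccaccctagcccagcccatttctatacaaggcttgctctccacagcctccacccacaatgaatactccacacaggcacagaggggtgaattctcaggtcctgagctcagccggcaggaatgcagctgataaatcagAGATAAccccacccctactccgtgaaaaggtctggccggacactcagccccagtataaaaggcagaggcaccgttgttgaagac
Myl2: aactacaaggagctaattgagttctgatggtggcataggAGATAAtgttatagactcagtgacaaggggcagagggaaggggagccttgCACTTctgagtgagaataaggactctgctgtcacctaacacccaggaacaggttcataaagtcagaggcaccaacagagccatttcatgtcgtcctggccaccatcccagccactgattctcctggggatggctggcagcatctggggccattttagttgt
Gja5: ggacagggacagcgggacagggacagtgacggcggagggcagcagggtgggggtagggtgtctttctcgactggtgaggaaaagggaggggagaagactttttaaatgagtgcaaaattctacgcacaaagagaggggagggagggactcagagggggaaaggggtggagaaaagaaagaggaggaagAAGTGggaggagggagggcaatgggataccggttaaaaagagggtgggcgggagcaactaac
AAGTG was found in Myl2 and Gja5, starting 161 and 62 bases before the start site, and AGATAA in Nppb and Myl2, at 84 and 211 bases. Of 32851 RefSeq promoters cut to the same window, 40.7% held AAGTG and 9.99% held AGATAA, and the 2 motifs do not overlap here. The second Myl2 entry held neither. Such a match is a description of letters and does not show binding.

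These 3 genes stood lower in heterozygotes on average, without passing the test. Nppb, a natriuretic peptide of heart muscle, read 1262, 1622 and 1548 in wild type 1, 5 and 7 and 1235, 821.1 and 1184 in heterozygous 3, 4 and 8. Every heterozygous value was below every wild-type value, though heterozygous 3 and wild type 1 were nearly equal. The log2 difference was -0.47 (95% interval -1.12 to 0.19, unadjusted p 0.148 in limma), and -1.15 in homozygous mutants (adjusted p 0.129 in limma). Myl2, the regulatory light chain of ventricular myosin, read 10592, 13088 and 15308 in wild type and 9597, 6558 and 9809 in heterozygotes, again without overlap. Its log2 difference was -0.59, with an interval from -1.97 to 0.78 that spans large changes in both directions. Homozygous mutants 2, 6 and 9b read 2169, 7483 and 22957, on both sides of wild type. Their log2 difference was -0.84 (adjusted p 0.681 in limma). A Myl2 probe set on type a differed by -0.63 in heterozygotes, which overlapped wild type. Gja5, a connexin of atrium and conduction system, read 774.4, 725.7 and 607.4 in wild type and 707.5, 662.7 and 589 in heterozygotes, which overlapped, with a log2 difference of -0.10 (-0.48 to 0.28). Of the 8 tested genes of the list to which they belong, 5 were lower and 3 higher in heterozygotes, with a median of -0.16 beside 0.02 over all 3909 tested genes. The others were Hand1 (-0.22) and Msx2 (-0.22), which are transcription factors, Mycn (0.09), a growth regulator, Smyd1 (0.17), a muscle methyltransferase, and Slc8a1 (0.02), the sodium-calcium exchanger.

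Most contractile genes were lower too. Of 12 sarcomere genes 10 were lower in heterozygotes, with a median log2 difference of -0.28. The groups did not overlap for 3 of them, all lower, while 115 of all tested genes (2.94%) did not overlap downwards and 93 (2.38%) upwards at their brightest probe set. Among the brightest 20% of genes, which hold 9 of the 12, 59.1% were lower and 45 of 782 were lower without overlap. None of the 12 sarcomere genes had an unadjusted p under 0.05, which 30 of all genes had upwards (0.767%) and 14 downwards (0.358%). Myl3, an essential myosin light chain, read 8552, 8670 and 7572 in wild type 1, 5 and 7 and 5859, 4548 and 6725 in heterozygous 3, 4 and 8. Its log2 difference was -0.55 (95% interval -1.28 to 0.19). Myl3 was 0.85 higher in homozygous mutants than in wild type, the opposite direction (adjusted p 0.355 in limma). Homozygous mutant 9b read 28777, against 10732 and 10695 in homozygous mutants 2 and 6. Myom1, a protein of the sarcomere M band, read 1392, 1236 and 2118 in wild type and 1202, 898.8 and 1194 in heterozygotes, a log2 difference of -0.50 (-1.25 to 0.25).

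Most other contractile genes varied as much within a genotype as between them. Tnnc1, cardiac troponin C, read 12675, 12618 and 17018 in wild type and 10610, 5988 and 16994 in heterozygotes, so that heterozygous 3 and 4 stood below every wild-type array and heterozygous 8 did not. Its log2 difference was -0.44 (-1.21 to 0.32). Actc1, cardiac actin and the brightest of the list, read 51001, 81914 and 64376 in wild type and 63455, 56647 and 51398 in heterozygotes, a difference of -0.18 with overlapping groups. Myh6 and Tnni3, the atrial myosin heavy chain and cardiac troponin I, differed by -0.36 each, Myl4, the atrial light chain, by -0.21, and Acta1, skeletal actin, by -0.16. Tnnt2, cardiac troponin T (-0.03), Tpm1, tropomyosin (0.05), and Des, desmin (0.04), were near the wild-type mean.

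**Figure D4:**
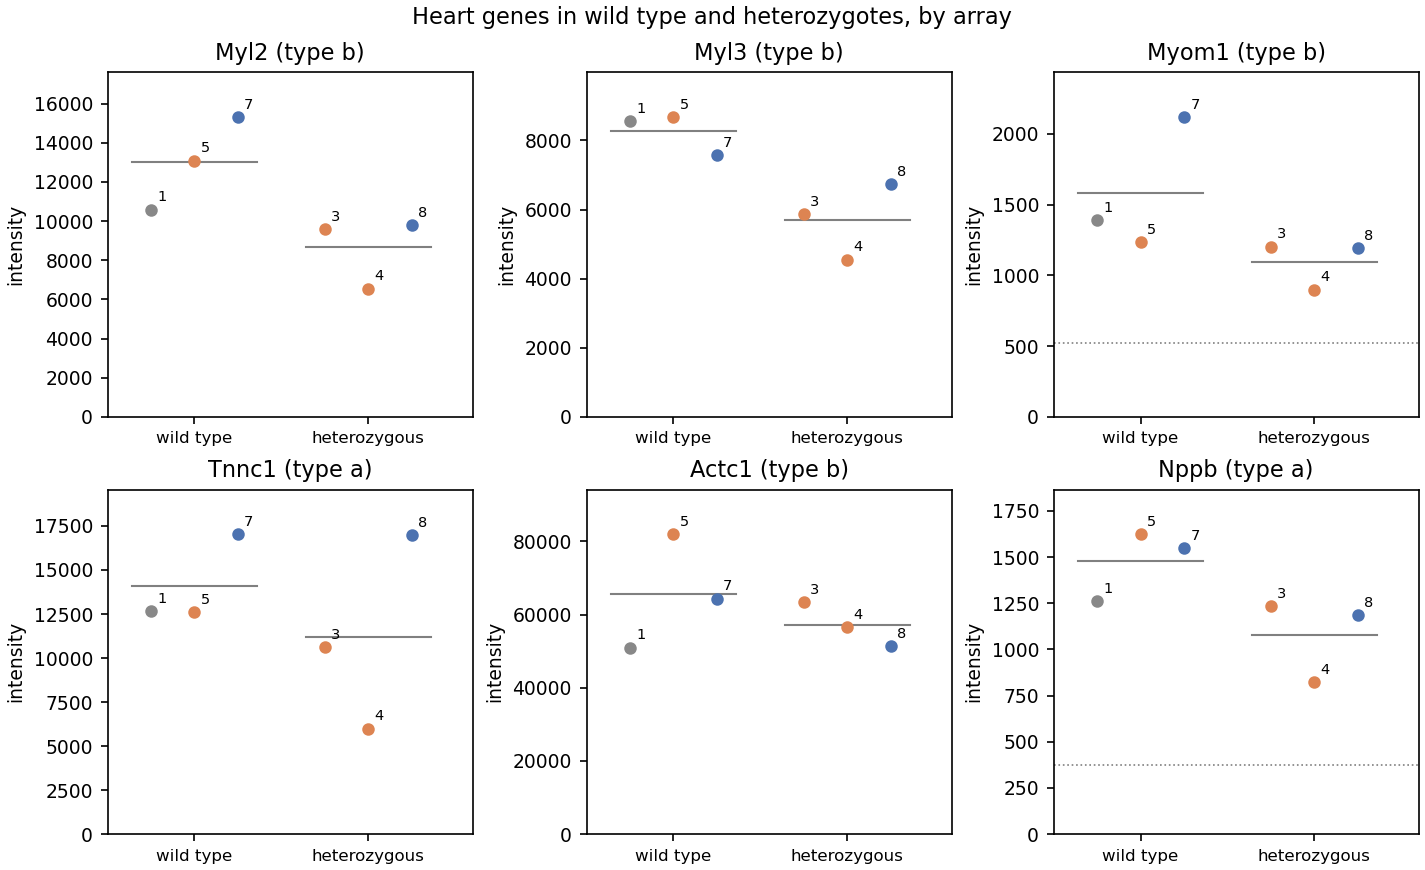
Intensity of 6 heart genes, 1 point per array labelled with its replicate number; gray lines are group means of 3 arrays, dotted lines the floor, and colours mark the sets of like arrays (orange for wild type 5 with heterozygous 3 and 4, blue for wild type 7 with heterozygous 8, gray for wild type 1). Groups do not overlap in the Myl2, Myl3, Myom1 and Nppb panels and overlap in the Tnnc1 and Actc1 panels.

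The lower sarcomere median rested most on heterozygous 4. As a median deviation from the mean of the 6 arrays, the 12 genes stood at -0.11, 0.15 and 0.45 in wild type 1, 5 and 7 and at -0.15, -0.54 and 0.09 in heterozygous 3, 4 and 8 on the log2 scale. Wild type 1 was thus close to heterozygous 3, and heterozygous 8 close to wild type 5. Within the first set of like arrays the median difference was -0.49, and within the second it was -0.03. The median was -0.06 without heterozygous 4, -0.19 without wild type 7, -0.48 without wild type 1 and -0.49 without heterozygous 8. It was below 0 in all 23 settings tried. These include settings that could not move it, such as leaving out a homozygous mutant, where it stayed at -0.28. On the smooth muscle list 4 of 4 genes were lower as well, with a median of -0.21. Acta2, smooth muscle actin, which also marks early heart muscle, differed by -0.30 and Tagln by -0.13.

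Cardiac transcription factors leaned above the wild-type mean, but not within both sets of like arrays. Of 9 tested, 6 were higher and 3 lower, with a median of 0.13, and the groups overlapped for each. The median was -0.10 within the first set of like arrays, 0.18 within the second and 0.04 after quantile normalization. In both sets 2 of the 9 were higher and 1 was lower. The median deviation was lowest in wild type 1, at -0.26, against 0.07 and -0.02 in wild type 5 and 7. Hand2, needed for the right ventricle, read 1138, 1691 and 1101 in wild type 1, 5 and 7 and 1418, 1489 and 1627 in heterozygous 3, 4 and 8, a log2 difference of 0.23 (95% interval -0.39 to 0.86). In homozygous mutants Hand2 stood 1.06 lower than in wild type on the log2 scale (adjusted p 0.143 in limma). Tbx2, a repressor of chamber genes, differed by 0.48 (-0.29 to 1.24), with wild type 1 the low array. Gata6 differed by -0.11 and Meis1 by 0.17. Gata4 and Tbx3, which the 9 include, were at or under the floor on most arrays and are not ordered.

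Genes of calcium handling and conduction were split, 6 higher and 6 lower of 12, with a median of -0.02. Kcne1, the accessory subunit of the slow potassium channel, was the 1 gene of this list with an unadjusted p under 0.05. It read 487.2, 631.3 and 610.8 in wild type 1, 5 and 7 and 1318, 1008 and 885.7 in heterozygous 3, 4 and 8. All heterozygous values were above all wild-type values, by 0.85 on the log2 scale (SE 0.293, unadjusted p 0.0145 in limma). Wild type lay close to the floor of 523.1, with 1 array under it. Gjc1, a connexin of the early heart and its conduction tissue, read 3064, 3073 and 3688 in wild type and 2830, 2887 and 2820 in heterozygotes, lower without overlap by 0.20 on the log2 scale. Atp2a2, the calcium pump of the sarcoplasmic reticulum, differed by -0.22 and Gja1, another connexin, by 0.12, and Ryr2, the calcium release channel, by -0.08, each with overlapping groups.

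Oxidative phosphorylation showed the widest weak shift over a function, and its direction was known from an earlier look at these data. The list holds the electron transport complexes of the inner mitochondrial membrane and the ATP synthase they drive. Of 52 tested genes 45 were lower in heterozygotes (86.5%), with a median log2 difference of -0.15. Among all tested genes 45.8% were lower, and among the brightest 20% of genes, which hold 41 of the 52, 59.1% with a median of -0.03. No gene of the 52 had an unadjusted p under 0.05 in limma. Lower without overlap were 11 of the 52 and 45 of the 782 brightest genes. The median was -0.14 over 40 genes on type a and -0.15 over 12 on type b. It was -0.07 within the first set of like arrays and -0.18 within the second. For the brightest 20% of genes these medians were -0.05 and -0.06, so in the first set the list lay close to bright genes in general. In both sets 28 of the 52 were lower (53.8%), against 37.5% of the 782. In homozygous mutants the median of the same genes was 0.08.

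By replicate the list sat at 0.10, 0.01 and 0.09 in wild type 1, 5 and 7 and at -0.04, -0.07 and -0.07 in heterozygous 3, 4 and 8, as a median log2 deviation from the mean of the 6 arrays. The groups did not overlap, but wild type 5 was nearer to heterozygous 3 than to either other wild type. The median ran from -0.18 to -0.10 over 23 settings.

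The median was below 0 in each of the 4 electron transport complexes and in the ATP synthase. In complex I, which takes electrons from NADH, 16 of 19 genes were lower with a median of -0.08. Ndufa12 read 9079, 9541 and 8521 in wild type 1, 5 and 7 and 8074, 6904 and 5996 in heterozygous 3, 4 and 8, lower without overlap by 0.38 on the log2 scale (SE 0.211, unadjusted p 0.0983 in limma). Ndufs4 and Ndufa5, at -0.29 each, also did not overlap, whereas Ndufb3 (-0.01) and Ndufa3 (-0.02) stood at the wild-type level. Ndufb10 was the highest of the list at 0.48, with wild type 7 under the floor.

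Complex II, succinate dehydrogenase, had 2 tested genes, Sdhb at -0.17 and Sdhc at -0.12, the latter mostly under the floor. In complex III with its partner cytochrome c, 8 of 9 genes were lower with a median of -0.20. Uqcrq, a small subunit, read 6922, 6000 and 6115 in wild type and 4557, 4866 and 5096 in heterozygotes, a log2 difference of -0.39 (SE 0.182, unadjusted p 0.0549 in limma). Uqcr10 was the lowest of the whole list, with 12541, 8025 and 11041 in wild type and 6440, 6553 and 8720 in heterozygotes. Its difference was -0.53 (SE 0.255, unadjusted p 0.0604 in limma), although heterozygous 8 exceeded wild type 5. Uqcrb differed by 0.04.

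In complex IV, cytochrome c oxidase, all 9 genes were lower, from -0.41 for Cox6a2, the muscle form, to -0.02 for Cox4i1. Cox6c read 19832, 16946 and 17043 in wild type and 14758, 16559 and 15207 in heterozygotes, without overlap. In the ATP synthase 10 of 13 genes were lower, with a median of -0.18. Atp5mpl read 20067, 15318 and 17714 in wild type and 15068, 14832 and 13123 in heterozygotes, a difference of -0.30 without overlap. The catalytic subunit Atp5b differed by -0.08 and Atp5c1, of the central stalk, by -0.01. The Atp5c1 interval (-0.30 to 0.28) had 1 of the smallest outer bounds of all genes.

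**Figure D5:**
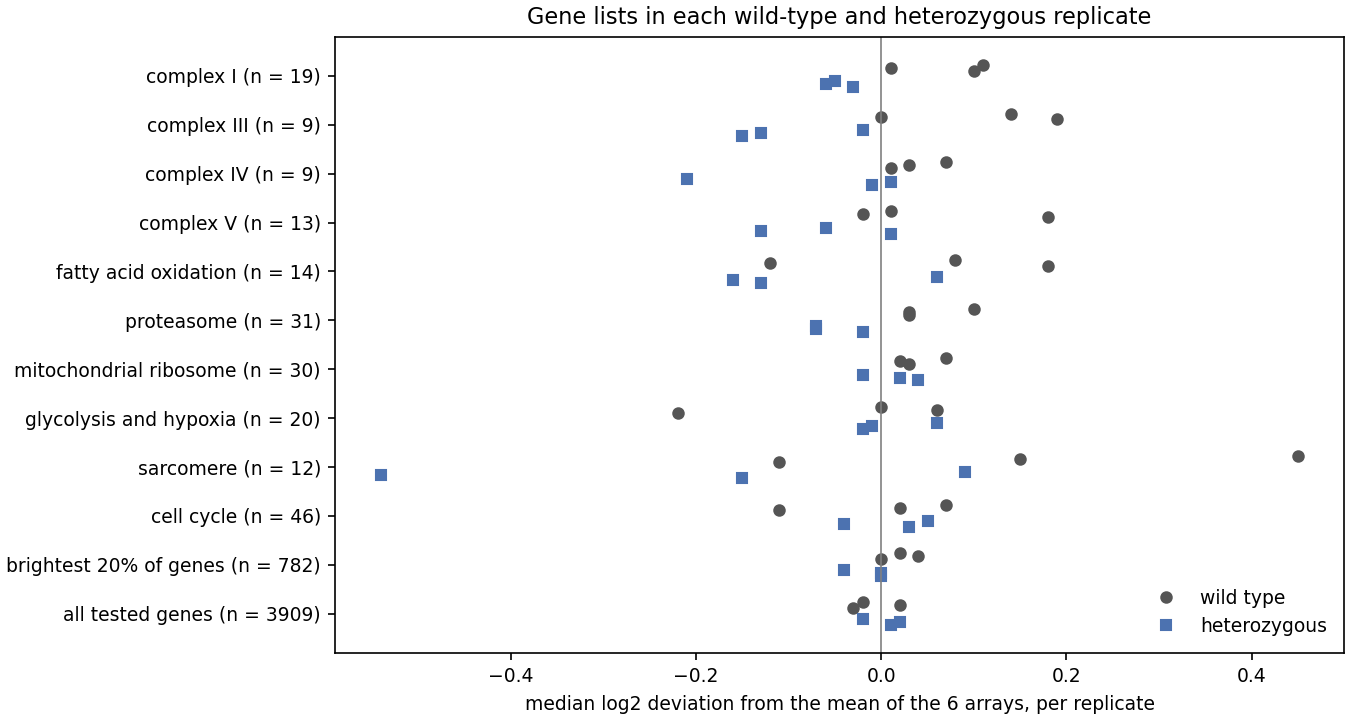
Median log2 deviation of each gene list from the mean of the 6 wild-type and heterozygous arrays (x axis), 1 point per replicate, circles for wild type and squares for heterozygous, with the number of genes beside each list. In complexes I and III and the proteasome each wild-type point lies to the right of each heterozygous point, and all points of all tested genes lie between -0.03 and 0.02.

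Other mitochondrial and protein turnover lists varied. Of 31 proteasome genes 25 were lower, with a median of -0.13 that stayed negative in 23 of 23 settings. Some of these settings change only the estimate of spread and could not move a median. Among the brightest 20% of genes, which hold 22 of the 31, 59.1% were lower with a median of -0.03. The proteasome deviations were 0.03, 0.03 and 0.10 in wild type and -0.02, -0.07 and -0.07 in heterozygotes. Psmd2, of the regulatory particle, differed by -0.29, while Psmd14, the deubiquitinase of the lid, was higher without overlap by 0.32. Fatty acid oxidation had 13 of 14 genes lower and a median of -0.12. Within the first and second sets of like arrays the median was 0.01 and -0.04. In both sets 3 of the 14 were lower (21.4%), against 23.7% of all tested genes, and 3 were higher. Acaa2, the last enzyme of the cycle, read 4742, 4068 and 4032 in wild type and 3523, 3252 and 3534 in heterozygotes, a log2 difference of -0.31 at an unadjusted p of 0.0493 in limma. This list had a median of 0.02 without wild type 1 and heterozygous 4, -0.20 after quantile normalization and -0.27 without heterozygous 8. The mitochondrial ribosome had a median of -0.03 and the citrate cycle one of 0.05, with 7 of 10 genes higher.

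Functions of growth and of glucose use kept the wild-type level in the median. It was 0.05 for 20 genes of glycolysis and hypoxia, a list whose median was 0.98 in homozygous mutants. It was -0.02 for 40 cytosolic ribosomal proteins and -0.00 for 36 translation factors. For 46 cell cycle genes it was 0.04, and the 95% interval lay within 2-fold of wild type for all 46. None of these 4 lists had a gene with an unadjusted p under 0.05. Within the first set of like arrays their medians, in that order, were -0.07, -0.09, -0.05 and -0.04, beside -0.07 for oxidative phosphorylation. Within the second they lay between -0.0 and 0.01, beside -0.18.

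Tissue and signalling lists had medians between -0.02 and 0.16 for lists of at least 7 genes. The red cell lineage stood at 0.02 over 18 genes, endothelium at -0.00 over 11, neural tube and neurons at 0.01 over 20, somite at -0.02 over 7 and mesenchyme and matrix at -0.00 over 38. After quantile normalization the endothelial median was -0.13, the neural one -0.07 and the matrix one -0.08. Tal1, a transcription factor of blood and endothelial progenitors, was lower without overlap. It read 700.3, 1226 and 415.1 in wild type 1, 5 and 7 and 260.2, 409.1 and 380.2 in heterozygous 3, 4 and 8. The difference was -0.87 at an unadjusted p of 0.0387 in limma, with wild type 5 the high array. Wild type 7 and heterozygous 4 and 8 lay close to the floor of 375.1, and heterozygous 3 was under it. Within the first and second sets of like arrays the difference was -1.65 and -0.13. In the gut and surface epithelium list 9 of 11 genes were higher, with a median of 0.16. By replicate the list stood at -0.11, -0.13 and -0.11 in wild type 1, 5 and 7 and at 0.08, 0.34 and -0.11 in heterozygous 3, 4 and 8, so heterozygous 8 was at the wild-type level. The median was 0.04 without wild type 1 and heterozygous 4, the arrays with high Afp, and 0.11 after quantile normalization. Cdh1, E-cadherin, read 1153, 1164 and 1061 in wild type and 1520, 1783 and 1195 in heterozygotes, higher without overlap by 0.39 on the log2 scale. In the list of Wnt, Fgf, Notch and hedgehog signalling 21 of 30 were higher, with a median of 0.15. That median was 0.06 after quantile normalization, 0.05 and 0.03 within the sets of like arrays, and between 0.00 and 0.22 over all settings. Fzd9, a Wnt receptor, read 324.3, 367.3 and 376.1 in wild type and 584.7, 467.5 and 518.7 in heterozygotes, 0.47 higher at an unadjusted p of 0.00909 in limma, from a wild type at the floor of 375.1.

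Among single named genes, the smallest unadjusted p belonged to Sh3bp1. It read 627.2, 426.1 and 688.6 in wild type 1, 5 and 7 and 1108, 1916 and 1610 in heterozygous 3, 4 and 8. Every heterozygous array was higher, by 1.31 on the log2 scale (SE 0.272, unadjusted p 0.000539 in limma). Wild type lay close to the floor of 523.1, with wild type 5 under it. Homozygous mutants were 0.96 higher than wild type (adjusted p 0.174 in limma). Rbmx, an RNA-binding protein of splicing, read 417.3, 369.2 and 391.8 in wild type, close to the floor of 375.1. In heterozygotes it read 631.3, 699.5 and 657.4, a difference of 0.75. Gpc1, a cell surface heparan sulfate proteoglycan, read 1002, 905.2 and 880.5 in wild type and 1267, 1521 and 1488 in heterozygotes, 0.61 higher. A second probe set of Gpc1 differed by -0.20.

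Other genes with small p differed less evenly over the replicates. Anp32a, a phosphatase inhibitor and histone chaperone, read 1077, 2060 and 1169 in wild type and 1691, 3920 and 7481 in heterozygotes, so the mean rested on heterozygous 8, and its probe set on type b differed by -0.17. Trip12, a ubiquitin ligase, was 0.71 higher at 1 probe set and differed by -0.04 at another. Efhd2, a calcium-binding protein, was 0.70 higher at a probe set near the floor, whereas a brighter one was lower without overlap, by 0.27 on the log2 scale. Slc2a8, a glucose transporter, read 1858 and 1859 in heterozygous 3 and 4 and 931.7 in heterozygous 8, against 758.4 to 942.3 in wild type.

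The smallest p among genes lower in heterozygotes belonged to Ebp, a sterol isomerase of cholesterol synthesis. It was under the floor of 523.1 on all 3 heterozygous arrays and at 651.5, 719.6 and 851.9 in wild type. The fitted log2 difference of -0.49 understates it, because the heterozygous values were set to the floor. Hes6, a regulator of neuron differentiation, read 1283, 909.3 and 1168 in wild type and 564.7, 827.5 and 660.7 in heterozygotes, a difference of -0.71 (SE 0.214, unadjusted p 0.00657 in limma). This probe set was under the floor in all homozygous mutants. A Hes6 probe set on type a stayed well above the floor on every array and differed by -0.27 in heterozygotes and -0.24 in homozygous mutants. Cops4, a subunit of the COP9 signalosome, read 2249, 2102 and 1252 in wild type and 1093, 591.3 and 789.1 in heterozygotes, a difference of -1.18. Cdkn1c, an imprinted inhibitor of the cell cycle, read 11486, 7784 and 8280 in wild type and 4148, 4914 and 7895 in heterozygotes, so heterozygous 8 was at the wild-type level. Its difference was -0.73, or -0.17 at a probe set of type a.

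Kmt5c and Josd2, a deubiquitinase, shared a pattern. Kmt5c read 5684, 2509 and 3526 in wild type 1, 5 and 7, -7.5 and -201.2 in heterozygous 3 and 4, and 3639 in heterozygous 8. Josd2 read 1850, 1025 and 1167 in wild type, -403.1 and -447.3 in heterozygous 3 and 4, and 1102 in heterozygous 8. In both, heterozygous 3 and 4 lay below 0 and heterozygous 8 lay within or near the wild-type range, and homozygous mutants were bright. A second probe set of each gene differed by -0.05 for Kmt5c and 0.34 for Josd2.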

How the data were processed

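The deposited intensity per probe set, scaled by the authors in a way not given in the sources used here, was kept without further scaling. On Affymetrix arrays a probe set is a group of oligonucleotides read as 1 value, and it can match related genes. Control probe sets were left out, and only probe sets annotated to 1 gene symbol are named. Values below a floor of 2 times the noise SD (375.1 on type a, 523.1 on type b), with the noise taken from the negative values, were set to it before log2. Testing required values above that floor on 3 or more of 9 arrays, which left 3969 on type a and 2966 on type b, with 4631 named probe sets for 3909 genes. With 3 arrays per genotype on each type, their number limits the precision.

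Heterozygous and wild type were compared with limma 3.58.1 in R 4.3.3 (two-sided, intensity trend, 9 arrays per type sharing the spread), adjusted by Benjamini-Hochberg over both types. The script was tested on simulated data. Heterozygous and homozygous differences share the wild-type arrays. Gene lists used the brightest probe set of a gene and carry no test. Assembly and interacting factors caught by a name pattern (Ndufaf1, Ndufaf4, Cox7a2l, Psmc3ip, Psme3ip1) were left out of their lists. Named genes were taken from the 12 with the smallest p in each direction, the tested genes of the heart lists and the extremes of other lists. Not every gene of these groups is named. Also named were the 10 most supported in homozygous mutants and the genes whose interval had the smallest outer bound. Members and lists were chosen with earlier results of these data known. Alternatives changed the floor, scaling, filter, spread and replicates, and the sets of like arrays as a block were added after seeing the data.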

Additional observations from a re-analysis of the deposited data

How the results depend on the processing

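No paired analysis was possible because wild type (1, 5, 7) and heterozygous (3, 4, 8) share no replicate number. The count of changed probe sets was 0 in every alternative except without wild type 7 (1) and without heterozygous 8 (1), a leave-one-out range of 0 to 1. The count at an unadjusted p under 0.05, 118 as reported, was 473 with array weights, 402 with the sets of like arrays as a block and 45 without wild type 1 and heterozygous 4. With 1 replicate left out it ran from 64 (heterozygous 4) to 293 (heterozygous 8), with 228 without wild type 5 and 78 without heterozygous 3. The block was defined from the same values, so its p-values are too small to be taken at face value. Probe sets without overlap, 442 as reported, were 1306 without wild type 1 and heterozygous 4. With 1 replicate left out they ran from 440 (a homozygous mutant) to 1500 (heterozygous 8), with 860, 1339 and 1056 without wild type 1, 5 and 7, and 712 and 744 without heterozygous 3 and 4, since smaller groups overlap less often. The oxidative phosphorylation median, -0.15 as reported, was -0.10 with array weights and ran from -0.18 to -0.10 with 1 replicate left out, with -0.11 without wild type 7 and -0.10 without heterozygous 8. The count within 2-fold ran from 3528 to 4931 over all alternatives, against 4365 as reported. For 231 named probe sets, 4584 of 4706 alternative values were on the same side of the threshold or within the replicate spread, 121 moved and 1 passed the threshold. Signal near the floor limits dim genes, and 3 arrays a group limit the rest.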
